A study of Mus musculus with 8 samples.

Results

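Dietary sugars enter the body through a short chain of proteins on the enterocyte, and 9 genes of that chain were described here in the jejunal mucosa of mice fed a Western diet with fructooligosaccharides (FOS). The genes were chosen by name, out of 56980 gene identifiers counted, because the diet held FOS. They were the disaccharidases Sis, Lct, Mgam and Treh, the hexose transporters Slc5a1, Slc2a2 and Slc2a5, the fructose kinase Khk and the sugar-sensing transcription factor Mlxipl, and each matched a single identifier. In all, 9 of 9 had at least 10 counts in each of 8 libraries and none was lost to the filter on low counts. The question was whether their RNA differed between Adipoq-F2-KO mice and FFA2 fl/fl controls, and how much it varied between libraries of the same genotype.

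Adipoq-F2-KO mice carried floxed alleles of the short-chain fatty acid receptor FFA2 together with a Cre recombinase driven by the adiponectin promoter, which acts in adipocytes and not in the gut lining. The FFA2 fl/fl controls had the floxed alleles and no Cre transgene named in their labels. The paper calls controls littermates in its Western diet cohort without FOS, and not expressly for the mice sequenced here. All mice were male, were 12 weeks old when the diet began, and had 2 weeks of Western diet with 10% FOS in thermoneutral housing, so neither a chow group nor a group without FOS was available here for comparison. There were 4 libraries per genotype, the FFA2 fl/fl libraries 1 to 4 being called controls 1 to 4, from scraped jejunal mucosa, a mixed tissue, and nothing in the labels says which animals were caged together.

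Sucrose is split at the brush border by sucrase-isomaltase, the product of Sis, while maltase-glucoamylase (Mgam) releases glucose from starch fragments, lactase (Lct) splits milk sugar and trehalase (Treh) splits trehalose. Glucose then enters the enterocyte with sodium through SGLT1 (Slc5a1), fructose enters through GLUT5 (Slc2a5), and GLUT2 (Slc2a2) passes both on toward the blood. Inside the cell ketohexokinase (Khk) phosphorylates fructose, and ChREBP, the product of Mlxipl, is known to raise transcription of fructose-handling genes when sugar is plentiful. FOS are short fructose chains that mammalian disaccharidases cannot cut and that gut bacteria ferment.

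The libraries held 6007654 to 21712776 counts, and 3 of them, FFA2 fl/fl library 3 and Adipoq-F2-KO libraries 3 and 4, held under 10000000 and are called shallow, the other 5 deep. Enterocyte markers were high in every library, Vil1 at 31445 to 40394 and Fabp2 at 40025 to 71972 normalized counts (counts divided by a DESeq2 size factor per library). The ileal bile acid binding protein gene Fabp6 read 1.2, 1.1, 522.8 and 0.8 in FFA2 fl/fl libraries 1 to 4 and 3.9, 1.2, 140.1 and 941.9 in Adipoq-F2-KO libraries 1 to 4. Fabp6 was therefore high only in the same 3 shallow libraries, so that depth and this marker cannot be told apart. Smooth muscle myosin (Myh11) was highest in FFA2 fl/fl library 3 at 9682, against 64.8 to 3540 elsewhere. Ffar2, the gene that encodes FFA2, had 2 to 18 raw counts in each library and did not differ (log2 fold change 0.18 ± 0.56 SE), which checks no label because the Cre is not aimed at this tissue.

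Promoter windows are shown for 6 genes, because the short words that intestinal and sugar-responsive factors are known to bind fall differently in them. Each runs from 250 bases before to 50 after the RefSeq transcription start on GRCm38.p6, 5′ to 3′ on the gene's strand. The word CACGTG, the E box that ChREBP and its partner MLX share with many other factors, is in capitals in Khk, Mlxipl, Mgam and Slc5a1. In Sis the capitals mark a word of the HNF1 site (GTTAAT, here on the opposite strand as ATTAAC) and a CDX word (TTTATG), and in Lct they mark AGATAA, the GATA word, on both strands and TTTATG on the opposite strand (CATAAA).
Khk, chr5:30921309-30921608, plus strand: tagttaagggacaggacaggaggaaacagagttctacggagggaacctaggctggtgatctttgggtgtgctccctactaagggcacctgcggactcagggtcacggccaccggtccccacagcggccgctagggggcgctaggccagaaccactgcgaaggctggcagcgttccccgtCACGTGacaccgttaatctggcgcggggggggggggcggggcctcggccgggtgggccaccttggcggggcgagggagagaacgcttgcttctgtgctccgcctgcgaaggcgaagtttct
Mlxipl, upstream start, chr5:135089640-135089939, plus strand: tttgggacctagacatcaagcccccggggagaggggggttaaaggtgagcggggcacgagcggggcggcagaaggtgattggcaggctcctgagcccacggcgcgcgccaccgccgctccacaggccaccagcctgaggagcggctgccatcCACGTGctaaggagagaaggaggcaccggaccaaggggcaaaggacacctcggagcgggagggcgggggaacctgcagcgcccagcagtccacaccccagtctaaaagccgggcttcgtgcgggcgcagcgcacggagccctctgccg
Mgam, chr6:40628581-40628880, plus strand: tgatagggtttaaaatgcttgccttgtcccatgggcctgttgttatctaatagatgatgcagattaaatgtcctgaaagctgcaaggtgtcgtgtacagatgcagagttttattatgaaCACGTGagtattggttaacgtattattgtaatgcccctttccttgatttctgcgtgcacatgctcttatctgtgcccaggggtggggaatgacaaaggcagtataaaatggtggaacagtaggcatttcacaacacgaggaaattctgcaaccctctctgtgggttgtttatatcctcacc
Slc5a1, chr5:33103969-33104268, plus strand: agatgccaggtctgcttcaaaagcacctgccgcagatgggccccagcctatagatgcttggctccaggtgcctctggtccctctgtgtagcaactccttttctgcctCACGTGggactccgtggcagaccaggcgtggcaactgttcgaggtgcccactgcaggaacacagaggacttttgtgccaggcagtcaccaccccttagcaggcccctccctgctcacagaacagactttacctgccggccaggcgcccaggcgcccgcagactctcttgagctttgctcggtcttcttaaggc
Sis, chr3:72967814-72968113, minus strand: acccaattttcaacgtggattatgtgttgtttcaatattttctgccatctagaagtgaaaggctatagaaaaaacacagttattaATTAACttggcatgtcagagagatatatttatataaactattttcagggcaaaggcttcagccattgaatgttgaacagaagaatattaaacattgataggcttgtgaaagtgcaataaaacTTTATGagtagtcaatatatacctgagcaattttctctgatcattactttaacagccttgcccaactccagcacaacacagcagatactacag
Lct, chr1:128328269-128328568, minus strand: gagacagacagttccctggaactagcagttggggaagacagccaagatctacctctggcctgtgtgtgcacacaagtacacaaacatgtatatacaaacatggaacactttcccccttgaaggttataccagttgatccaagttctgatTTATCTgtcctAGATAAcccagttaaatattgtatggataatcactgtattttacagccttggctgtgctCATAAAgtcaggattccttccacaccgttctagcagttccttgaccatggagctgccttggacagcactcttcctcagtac

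The 9 genes had 10 windows, since Mlxipl has 2 starts 17001 bases apart, and both strands were searched. CACGTG lay in 4 of the 10 windows, at -71 in Khk, -98 in the upstream window of Mlxipl, -131 in Mgam and -143 in Slc5a1, counted from the start to the word's first base, and in 7.15% of 32851 windows genome-wide. GTTAAT lay in 2 windows (Sis and Khk, 7.1% of all), TTTATG in 2 (Sis and Lct, 11.9%), AGATAA in 2 (Lct and Mgam, 11.2%) and a shorter CDX word, TTTAC, in 3 (Lct, Slc5a1 and Slc2a2, 31.5%). The words did not overlap one another within these windows. None of these words was in the windows of Slc2a5 and Treh, which says nothing of binding elsewhere.

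No gene of the 9 differed between the genotypes beyond the spread between libraries. With DESeq2 across 15986 tested genes, 0 of 9 passed an adjusted p of 0.05, where 6 genes or 0.0375% of all tested genes did, and 0 of 9 had an unadjusted p under 0.05, where 3.03% of all tested genes did. The count of members under an unadjusted 0.05 was likewise 0 with edgeR and 0 with limma-voom. The ranges of the genotypes overlapped for 9 of 9, while they did not overlap for 2.12% of tested genes. Of the 9, 2 had a fold change above 0 and 7 below, beside 48.5% and 51.5% of all tested genes, and their median log2 fold change was -0.04 beside -0.01.

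**Figure D1:**
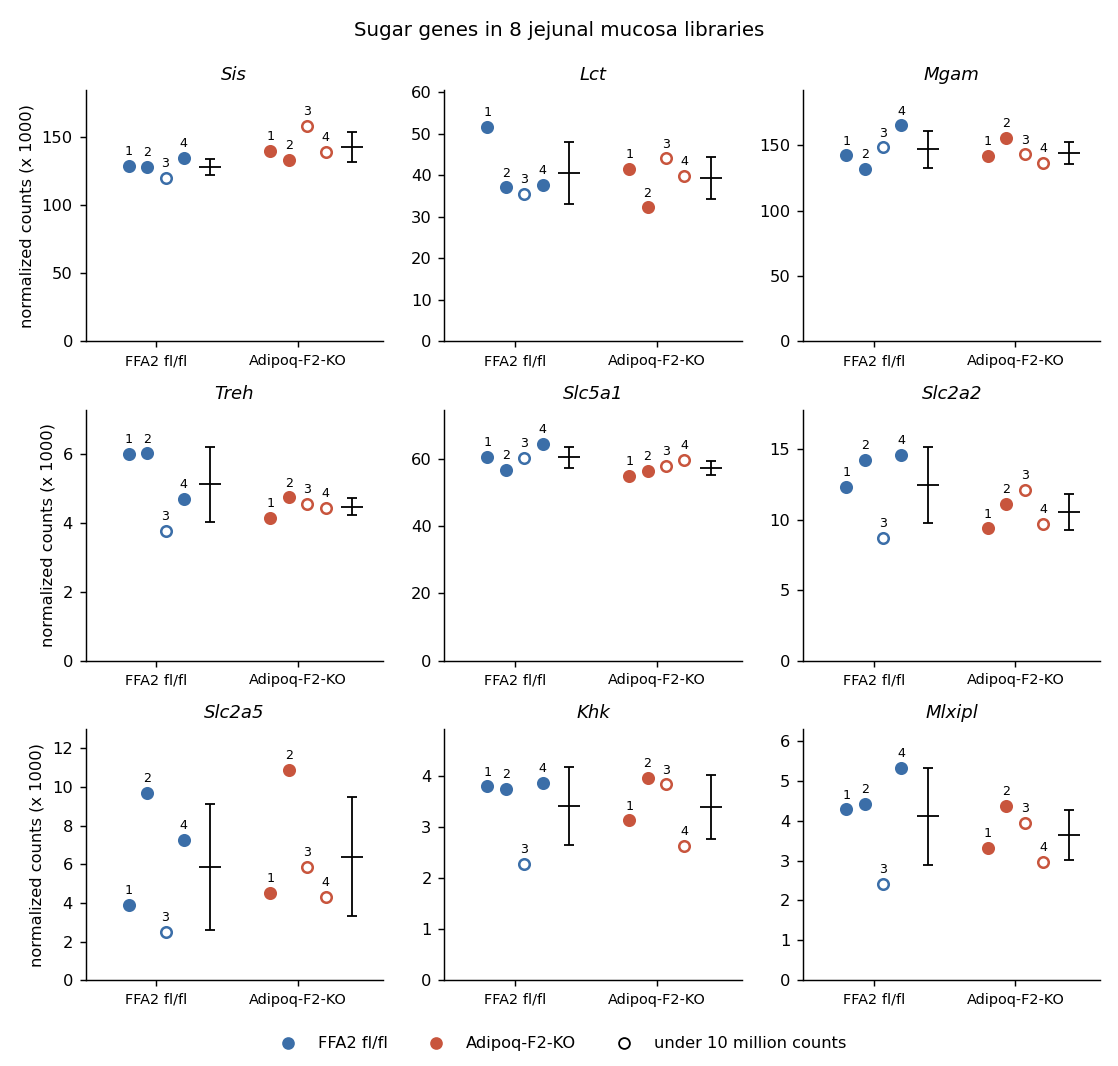
Normalized counts (vertical axes from 0, in units of 1000) for each of the 9 genes, with 1 point per library numbered by replicate, FFA2 fl/fl in blue and Adipoq-F2-KO in red, open points for the 3 shallow libraries, and black bars for the mean ± SD of 4. The genotypes overlap in every panel, and FFA2 fl/fl library 3 is the lowest of the 8 for Sis, Treh, Slc2a2, Slc2a5, Khk and Mlxipl.

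Sis came closest to a difference. Sucrase-isomaltase RNA was at 128303, 127566, 119807 and 134087 normalized counts in FFA2 fl/fl libraries 1 to 4 and at 139738, 132629, 157877 and 139003 in Adipoq-F2-KO libraries 1 to 4. In the Adipoq-F2-KO group 3 of 4 libraries lay above every control and library 2 lay just under the highest control. The fold was 1.12 (95% interval 0.995 to 1.25), with a log2 fold change of 0.16 ± 0.085 SE. The unadjusted DESeq2 p was 0.0598 with an adjusted p of 0.9998, and the two-sided exact permutation p on the log scale was 0.0571, where 0.0286 is the smallest that 4 against 4 can give. In the 5 deep libraries the log2 difference of Sis was 0.06, and without Adipoq-F2-KO library 3 it was 0.11. Without Adipoq-F2-KO library 2 its unadjusted DESeq2 p was 0.0349, where 3.36% of all tested genes were under 0.05.

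Maltase-glucoamylase, the partner of sucrase-isomaltase in starch digestion, was level. Mgam was at 142053, 131444, 148232 and 165041 in the controls and at 141511, 155173, 142833 and 136168 in Adipoq-F2-KO. The lowest and the highest of the 8 were both controls, and the fold was 0.981 (95% interval 0.861 to 1.12).

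Lactase was set apart by a single control. Lct was at 51533, 37051, 35539 and 37730 in the controls and at 41589, 32223, 43994 and 39744 in Adipoq-F2-KO. FFA2 fl/fl library 1 stood well above the other controls and above every Adipoq-F2-KO library. The fold was 0.973 (95% interval 0.792 to 1.20), and without that library the log2 difference went from -0.04 to 0.10.

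Trehalase was lower on average in Adipoq-F2-KO but within the control range. Treh was at 5990, 6011, 3760 and 4680 in the controls and at 4137, 4735, 4557 and 4433 in Adipoq-F2-KO. The controls spread from the lowest to the highest value of the 8, with a coefficient of variation of 21.4% against 5.63% in Adipoq-F2-KO, a difference in spread that was not tested. The log2 fold change was -0.20 ± 0.16 SE, with an unadjusted DESeq2 p of 0.212.

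Among the transporters SGLT1 was the steadiest of the 9 genes. Slc5a1 was at 60577, 56790, 60316 and 64400 in the controls and at 55040, 56467, 57863 and 59804 in Adipoq-F2-KO. Of the Adipoq-F2-KO libraries, 1 and 2 lay below every control, and the highest of the 8 was only 1.17 times the lowest. The fold was 0.947 (95% interval 0.860 to 1.04).

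GLUT2 RNA was at 12297, 14241, 8714 and 14587 in FFA2 fl/fl libraries 1 to 4. It was at 9380, 11112, 12121 and 9678 in Adipoq-F2-KO libraries 1 to 4. Controls 1, 2 and 4 were above every Adipoq-F2-KO library, whereas control 3 was below them all. Over all 8 libraries the log2 fold change of Slc2a2 was -0.24 ± 0.17 SE, with an unadjusted DESeq2 p of 0.165.

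GLUT5, the fructose entry route, varied more than any other member. Slc2a5 was at 3900, 9701, 2484 and 7239 in the controls and at 4522, 10873, 5844 and 4305 in Adipoq-F2-KO. Library 2 of each genotype was the highest of its group, and the highest of the 8 was 4.38 times the lowest. The fold was 1.10, with a 95% interval of 0.561 to 2.14, and the point estimate turned to a log2 value of -0.25 without Adipoq-F2-KO library 2. Counting error alone was at most 3.03% of any value of the 9 genes.

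Ketohexokinase RNA was at 3804, 3751, 2284 and 3870 in the controls and at 3136, 3974, 3844 and 2630 in Adipoq-F2-KO. Controls 1, 2 and 4 lay within a narrow band and control 3 far below it, and the log2 fold change of Khk was -0.01 ± 0.20 SE. Mlxipl was at 4283, 4414, 2417 and 5323 in the controls and at 3318, 4368, 3940 and 2970 in Adipoq-F2-KO. Control 4 was the highest and control 3 the lowest of the 8, and the log2 fold change of Mlxipl was -0.17 ± 0.22 SE.

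**Figure D2:**
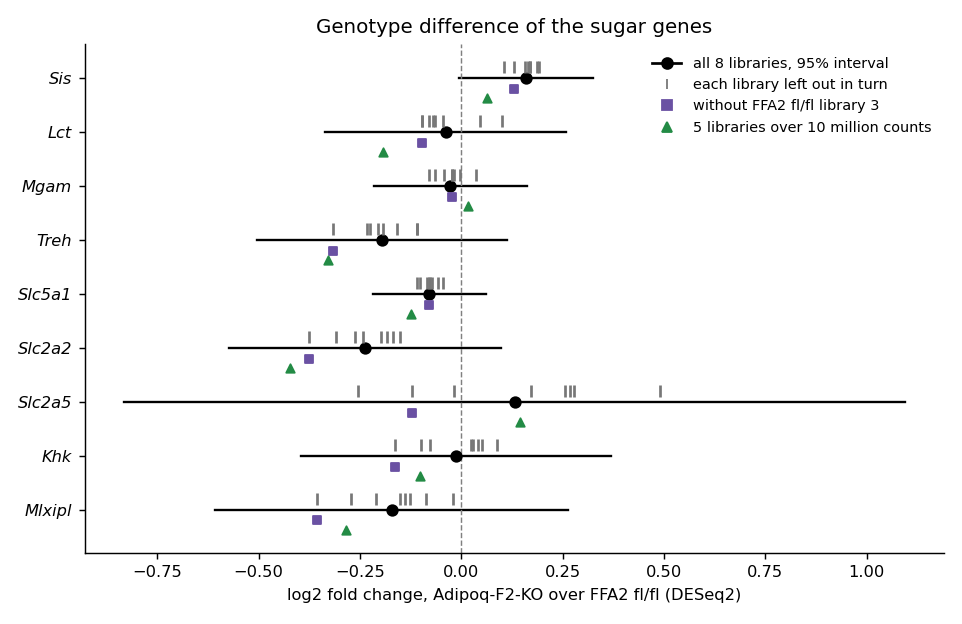
Log2 fold change of each of the 9 genes, Adipoq-F2-KO over FFA2 fl/fl, with black points and bars for the DESeq2 estimate and its 95% interval over 8 libraries, grey ticks for the estimates with each library left out in turn, purple squares for the one without FFA2 fl/fl library 3 and green triangles for the 5 deep libraries. Every black bar crosses 0, and the grey ticks run from -0.32 to -0.11 for Treh, from -0.38 to -0.15 for Slc2a2 and from -0.36 to -0.02 for Mlxipl, in each case lowest without FFA2 fl/fl library 3.

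The estimates for Treh, Slc2a2 and Mlxipl depended on which control was left out. Without control 1 or 2 the log2 difference of Treh shrank from -0.20 to -0.11, and without control 4 that of Slc2a2 shrank from -0.24 to -0.15 and that of Mlxipl from -0.17 to -0.02. Without control 3, the library with the most smooth muscle RNA, they moved the other way, to -0.32, -0.38 and -0.36. Slc2a2 then had an unadjusted DESeq2 p of 0.00249 (adjusted p = 0.134), Treh 0.00764 (adjusted p = 0.243) and Mlxipl 0.0196 (adjusted p = 0.335), each lower in Adipoq-F2-KO, where 3.77% of all tested genes were lower at that level. In the 5 deep libraries, 3 controls and 2 Adipoq-F2-KO, Slc2a2 (log2 -0.42, unadjusted p 0.00283) and Treh (log2 -0.33, unadjusted p 0.0402) were again under 0.05, beside 2.85% of all tested genes lower at that level, with DESeq2-adjusted p of 0.213 and 0.735. None of the 9 passed the adjusted threshold in either set of libraries, where 0.651% of all tested genes did without control 3 and 0.482% did in the deep libraries. The 3 shallow libraries, 1 control and 2 Adipoq-F2-KO, were too few for a comparison of their own.

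The 10 smooth muscle markers all had a fold change below 0 (median log2 -0.89), 0 of 10 with an unadjusted DESeq2 p under 0.05 beside 3.03% of tested genes, and their summed level ran from 3773 to 30138 normalized counts in the controls and from 4136 to 12359 in Adipoq-F2-KO. The summed level of the 7 ileal markers ran from 19388 to 35624 in the controls and from 13598 to 26796 in Adipoq-F2-KO, and its defining genes Fabp6 and Fgf15 were at or near 0 in the 5 deep libraries. That sum was highest in the deep FFA2 fl/fl library 1 and was 30347 in FFA2 fl/fl library 3. It was 24994 in the deep Adipoq-F2-KO library 1 and 24118 in the shallow Adipoq-F2-KO library 3. The mean centred log2 level of these markers was highest in the shallow libraries, at 1.99, 0.92 and 1.72, and below 0 in the deep ones. Enterocyte markers split 7 above and 9 below 0 among 16, with none under 0.05. With the smooth muscle score as a covariate the log2 differences were -0.20 for Slc2a2, -0.17 for Treh and -0.083 for Mlxipl. With the ileal score they were -0.15, -0.12 and -0.023, and that of Slc2a5 was 0.41, none with an unadjusted DESeq2 p under 0.05.

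Over the 8 libraries, the mean log2 levels of 19 marker lists were correlated with each of the 9 genes, and 9 of the 171 pairs had a Pearson correlation beyond 0.8 in size. Treh had 4 of these, -0.96 with clock genes of the morning phase, 0.85 with clock genes of the evening phase (Spearman 0.40), -0.86 with pan-epithelial markers and -0.83 with goblet cell markers. Mlxipl was at -0.84 with villus enterocyte and -0.82 with ileal markers, Khk was at -0.84 and -0.81 with the same lists, and Slc5a1 was at -0.93 with villus tip markers. Without FFA2 fl/fl library 3 the values of Mlxipl were -0.71 and -0.69 and those of Khk -0.71 and -0.68. Those named for Treh and Slc5a1 stayed beyond 0.8 in size, and Mgam with Paneth cell markers went from -0.66 to -0.81. The share of all tested genes with such a correlation is not given here. For Slc2a2 the list with the correlation of greatest size was the villus base, at 0.77.

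Between the genotypes, 6 of the 9 evening phase genes were below 0, of which Per2 and Hlf had an unadjusted DESeq2 p under 0.05 beside 3.03% of all tested genes, and the list's summed level ran from 8609 to 10960 in the controls and from 8221 to 9748 in Adipoq-F2-KO. The morning phase list, with 3 of 5 above 0, ran from 2764 to 3315 and from 2960 to 3327, and the villus base list, with 7 of 8 below 0 and 1, Gstm3, under 0.05, from 24366 to 78480 and from 26482 to 48899. All 6 macrophage markers (114.5 to 425.4 in the controls and 307.1 to 543.3 in Adipoq-F2-KO) and 5 of 5 tested B and plasma cell markers (2645 to 16201 and 5480 to 11260) had a fold change above 0, and 1 of these 11, Lyz2, had an unadjusted DESeq2 p under 0.05 beside the same 3.03%. The villus tip list, with 7 of 8 above 0 and 0 under 0.05, ran from 71285 to 101532 in the controls and from 88533 to 112147 in Adipoq-F2-KO. Below 0 were 6 of 7 enteroendocrine markers, 0 under 0.05, and 3 of 3 tested adipose markers, 1 under 0.05. The part of the clock genes, the villus position and the other cell types in the values of the 9 genes was not tested. In bulk mucosa, fewer enterocytes and less RNA per enterocyte cannot be told apart.

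The 9 genes took 3.05% to 3.66% of all counts in a library. As RPKM, that is counts scaled by exon length and library total, Sis averaged 1518 ± 126 (SD, n = 8), Mgam 1403 ± 118 and Slc5a1 1206 ± 63.9. Lct followed at 524 ± 80.9, then Treh at 197 ± 39.4, Slc2a2 at 169 ± 35.5, Khk at 160 ± 34.5, Slc2a5 at 153 ± 78.7 and Mlxipl at 59.2 ± 15.4. Sucrase-isomaltase, maltase-glucoamylase and the apical glucose carrier were thus the most abundant of the 9 per length. The ranges over libraries did not overlap between Slc5a1 and Lct or between Lct and Treh, whereas every other pair of neighbours overlapped.

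**Figure D3:**
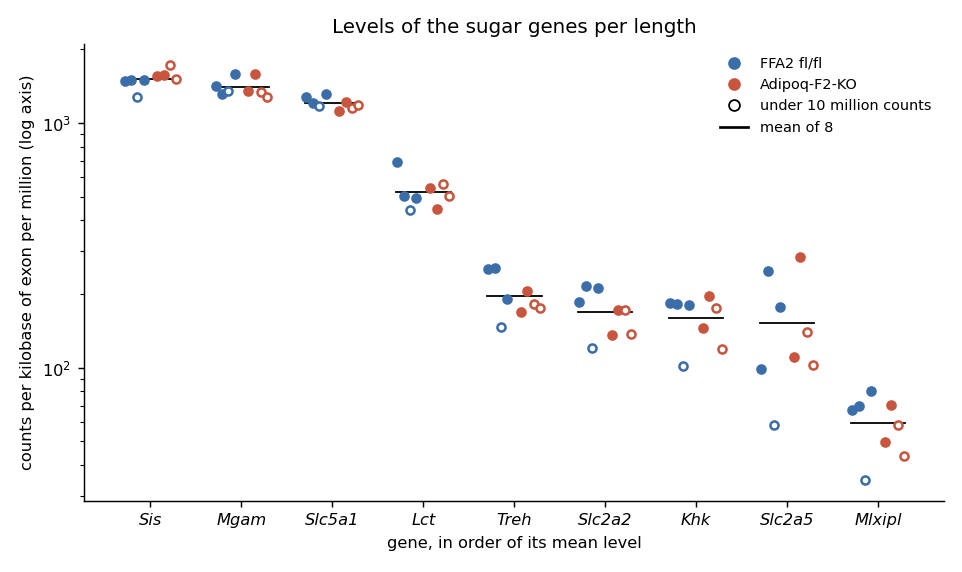
RPKM on a log axis for the 9 genes in order of their mean (black line), with FFA2 fl/fl libraries in blue, Adipoq-F2-KO in red and open points for shallow libraries. Sis, Mgam and Slc5a1 lie together above 1000, Lct lies between 442 and 696, and Slc2a5 spreads from 58.1 to 284.

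Length measure mattered to this order. With the longest coding length in place of the exons, Slc5a1 came first at 2480, ahead of Mgam at 2228 and Sis at 2077, and Slc2a2 came to 619, above Lct at 579.

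The 9 genes differed widely in their spread between libraries of the same genotype. The within-genotype SD of log2 normalized counts was 0.064 for Slc5a1, 0.089 for Sis and 0.11 for Mgam, under the median of 0.160 for the 2191 tested genes with a mean of at least 1000 normalized counts. It was 0.22 for Lct, 0.24 for Treh, 0.27 for Slc2a2, 0.33 for Khk, 0.39 for Mlxipl and 0.76 for Slc2a5. FFA2 fl/fl library 3 carried much of this. Without it the SD was 0.146 for Treh, 0.158 for Slc2a2, 0.215 for Khk and 0.221 for Mlxipl, beside 0.227 for Lct, 0.638 for Slc2a5 and a median of 0.141 for the abundant genes. Slc2a5 had the widest spread of the 9 with and without that library, which was left out here after seeing the data.

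Several of these genes had similar profiles over the libraries. Slc2a2, Slc2a5, Khk and Mlxipl, grouped after their values were seen, had Pearson correlations of 0.67 to 0.94 over the 8 libraries for their 6 pairs (Spearman 0.52 to 0.90), which share a library, its depth and its tissue. Khk and Mlxipl were the closest pair at 0.94, and Slc2a2 and Slc2a5 the loosest at 0.67. Without FFA2 fl/fl library 3 the same 6 pairs ran from 0.49 to 0.89, in the 5 deep libraries from 0.38 to 0.88, and as deviations from each genotype's mean from 0.78 to 0.96. Treh, whose spread was next to that of Slc2a2, correlated with the 4 genes at 0.75 for Slc2a2, 0.68 for Khk, 0.67 for Mlxipl and 0.48 for Slc2a5. Without FFA2 fl/fl library 3 these values were 0.63, 0.47, 0.47 and 0.18, and in the deep libraries they ran from 0.04 to 0.61. Treh thus shared part of the profile over the 8 libraries, and less of it without that library. Among Sis, Lct, Mgam and Slc5a1 the 6 pairs ran from -0.34 to 0.52.

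**Figure D4:**
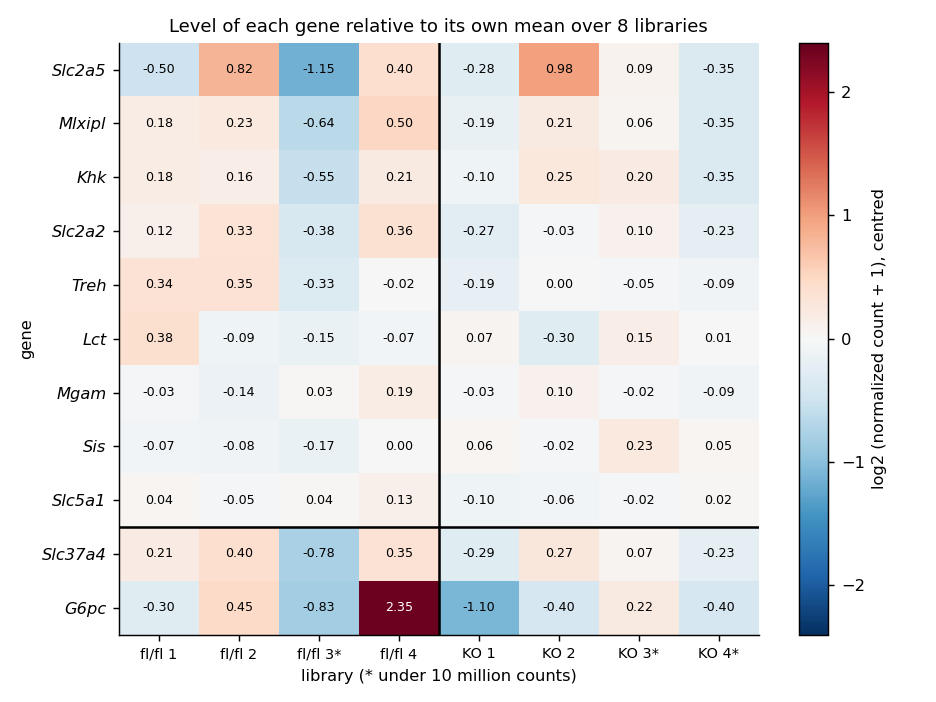
Log2 of the normalized count plus 1, centred on each gene's mean over 8 libraries, for the 9 genes (above the line) and for Slc37a4 and G6pc (below it), with red above and blue below the mean and a star at shallow libraries. The top 5 rows share their low in FFA2 fl/fl library 3, the rows of Mgam, Sis and Slc5a1 are pale throughout, and G6pc is highest in FFA2 fl/fl library 4.

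The mean centred log2 level of those 4 genes was 0.00, 0.38, -0.68 and 0.37 in FFA2 fl/fl libraries 1 to 4. It was -0.21, 0.35, 0.11 and -0.32 in Adipoq-F2-KO libraries 1 to 4. The lowest of these were FFA2 fl/fl library 3 and Adipoq-F2-KO library 4, which also held the most Fabp6 and the most Myh11, while Adipoq-F2-KO library 3, with 140.1 of Fabp6, was above 0. Among the deep libraries, with Fabp6 at 3.9 or less, the level still ran from -0.21 to 0.38.

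**Figure D5:**
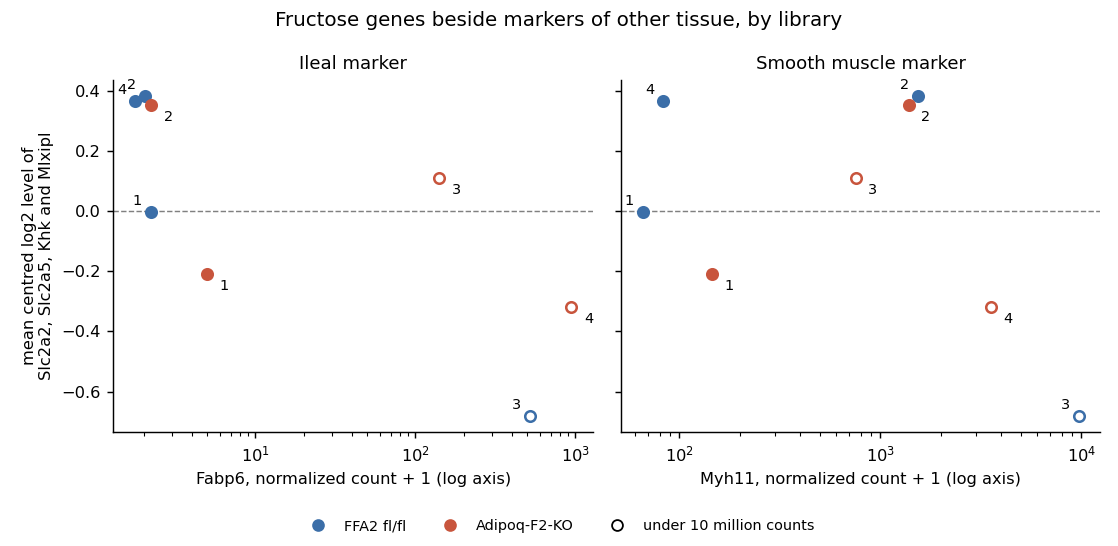
Mean centred log2 level of Slc2a2, Slc2a5, Khk and Mlxipl (vertical axis) against the normalized count plus 1 of the ileal marker Fabp6 (left) and the smooth muscle marker Myh11 (right) on log axes, with points numbered by replicate, FFA2 fl/fl in blue, Adipoq-F2-KO in red and open points for shallow libraries. FFA2 fl/fl library 3 is lowest at -0.68 and Adipoq-F2-KO library 4 next at -0.32, at the right of both panels, while the 5 deep libraries spread from -0.21 to 0.38 at the left of the Fabp6 panel.

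Of the windows shown above, the E box was in those of Khk and Mlxipl, which had the wider spread, and in those of Mgam and Slc5a1, which had the narrower. It was in neither the Slc2a2 nor the Slc2a5 window.

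Outside the 9, the gene with the highest Pearson correlation with the mean of all 9 over the 8 libraries was Slc37a4, which carries glucose 6-phosphate into the endoplasmic reticulum for release as glucose (Pearson 0.988 and Spearman 0.93 over 8 libraries, first of 10216 genes with a mean of at least 50 counts). The mean of the 9 was not scaled by spread, so the genes with a wide spread, Slc2a5 first, weighed most in it. Normalized counts of Slc37a4 were 1149, 1317, 579 and 1272 in the controls and 815, 1203, 1043 and 850 in Adipoq-F2-KO, again lowest in control 3. The next 4 were Fam53b, Rubcn, Tnk2 and 9430015G10Rik, at 0.976 to 0.979. The order among these 5 was not fixed, since Tnk2 (0.976) and Rubcn (0.952) had the higher Spearman values, and without control 3 9430015G10Rik (Pearson 0.974) was ahead of Slc37a4 (0.970). G6pc, the glucose 6-phosphatase that completes glucose release, was at 0.66.

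G6pc was at 659, 1108, 456 and 4140 in the controls and at 377, 616, 947 and 613 in Adipoq-F2-KO. Control 4 alone stood far above the rest, and the log2 fold change was -1.32 ± 0.74 SE, with an unadjusted DESeq2 p of 0.0739. The other controls overlapped the Adipoq-F2-KO libraries, and no fold change without control 4 is given here.

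The wider pathway held 75 genes in 7 lists, of which 67 were tested, 25 with a fold change above 0 and 42 below, and 0 passed an adjusted DESeq2 p of 0.05. At an unadjusted DESeq2 p under 0.05 there were 3, beside 3.03% of all tested genes. They were Acly, the ATP citrate lyase that feeds fat synthesis, Hnf4g, an enterocyte nuclear receptor, and Glyctk, the glycerate kinase of fructose breakdown. Acly was at 387, 428, 460 and 414 in the controls and at 463, 559, 513 and 515 in Adipoq-F2-KO. Its groups did not overlap, the log2 fold change was 0.29 ± 0.11 SE, and the exact permutation p was 0.0286, the smallest that 4 against 4 can give, but the DESeq2-adjusted p was 0.9998. Groups did not overlap for 2.12% of all tested genes. Acly was named for its small DESeq2 p in these same libraries, so its lack of overlap and its permutation p add no separate support.

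Glyctk was at 181, 201, 117 and 193 in the controls and at 109, 132, 132 and 107 in Adipoq-F2-KO. Control 3 lay among the Adipoq-F2-KO libraries and the other controls above them, with a log2 fold change of -0.55 ± 0.20 SE. Hnf4g was at 10511, 7163, 9285 and 6023 in the controls and at 15123, 10745, 8783 and 9786 in Adipoq-F2-KO, with overlap and a log2 fold change of 0.43 ± 0.21 SE.

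By list, 2 of 6 tested enzymes of fructose and polyol breakdown were above 0 and 4 below (median log2 -0.11), and 2 of 7 genes of glucose release were above 0 and 5 below (median -0.15). Hexokinases and galactose enzymes split 6 above and 5 below (median 0.07), and the other hexose transporters 6 above and 8 below (median -0.06). The ChREBP partners and targets split 4 above and 6 below (median -0.02), intestinal regulators and sweet sensing genes 5 above and 9 below (median -0.06), and 5 of 5 tested glycosidases beside the 9 genes were below 0 (median -0.07), none of the 5 under an unadjusted DESeq2 p of 0.05. These medians stand beside -0.01 for all tested genes. Fgf21, a ChREBP target in liver, had no count in any library.

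Ratios of members within a library, which do not depend on its scaling, were compared for 4 pairs. The sucrase-isomaltase to maltase-glucoamylase ratio was 0.903, 0.970, 0.808 and 0.812 in the controls and 0.987, 0.855, 1.11 and 1.02 in Adipoq-F2-KO, higher than every control in 3 of 4 libraries. Its log2 difference was 0.18, with a two-sided exact permutation p of 0.143 (0.457 after Benjamini-Hochberg adjustment over the 4 ratios). The fructose to glucose carrier ratio, Slc2a5 to Slc5a1, was 0.0644, 0.171, 0.0412 and 0.112 in the controls and 0.0822, 0.193, 0.101 and 0.0720 in Adipoq-F2-KO. These ranges overlapped almost wholly, with a log2 difference of 0.29 and an exact permutation p of 0.571 (adjusted 0.571).

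The ratio of Slc2a5 to Slc2a2 differed by 0.43 on the log2 scale (exact permutation p 0.371, adjusted 0.495), being 0.285 to 0.681 in the controls and 0.445 to 0.978 in Adipoq-F2-KO. The ratio of Sis to Lct differed by 0.19 (exact permutation p 0.229, adjusted 0.457), being 2.49 to 3.55 in the controls and 3.36 to 4.12 in Adipoq-F2-KO. In each of these a single library stood apart, Adipoq-F2-KO library 2 at the top of the first and FFA2 fl/fl library 1 at the bottom of the second. Without those libraries the differences were 0.17 and 0.07. The Sis to Mgam difference was 0.04 in the deep libraries.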

How the data were processed

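Jejunal mucosa was sequenced in 4 libraries per genotype, poly-A selected and stranded, with single-end reads of 75 bases. The deposited values are raw read counts per Ensembl gene, which the authors made with Trimmomatic, STAR and featureCounts. The submitters' processing notes name GRCm38 and mm10, while the annotation release, tool versions and strand setting are not given in the sources used here. Of 56980 identifiers, 52125 are in GENCODE M21, so a later annotation may have been counted. Gene symbols and exon lengths were taken from GENCODE M21, and promoter windows and their coordinates from RefSeq on GRCm38.p6 (9 of 9 genes matched). Treh shares 2 exonic bases with Phldb1 on the opposite strand and Mlxipl 235 with Gm43500, which had 0 counts.

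Groups and replicate numbers came from the sample titles. The labels name separate samples and not separate animals, so p-values measure the spread between these samples. The 15986 genes that reached 10 counts in 4 or more libraries were fitted with genotype alone in DESeq2 1.42.0 in R 4.3.3, the tool the study names, with Wald tests and Benjamini-Hochberg adjustment; 8 genes had no adjusted p. Permutation tests enumerated all 70 splits. Alternatives used edgeR 4.0.16 and limma 3.58.1, other scalings and filters, covariates, and sets of libraries. The fits were also run on simulated data, with an outcome that is not given here.

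Named genes were the 9, up to 3 genes per pathway list with the smallest unadjusted p under 0.05, the 5 most like the members' mean profile, and chosen tissue markers, Ffar2 and G6pc. A further gene the rule names is not reported here. Slc37a4 was named by likeness. Fgf15, Fgf21, Per2, Hlf, Lyz2, Gstm3 and the 4-gene fructose group were named after their values were seen. The 9 genes and all lists were chosen with earlier results of these data known.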

Additional observations from a re-analysis of the deposited data

Results flagged for a closer look

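Of the groups of 4 tested for a library far from its others, 62 in all, 11 held such a library, and chance alone gives about 1 in 20. The groups were not independent, because ratios share values with their members and 5 genes were chosen for likeness to the members. Among the sugar genes, Lct was at 51533 in FFA2 fl/fl library 1 against 35539 to 37730 in the other controls, and Khk was at 2284 in FFA2 fl/fl library 3 against 3751 to 3870. The log2 ratio of Sis to Lct was 1.32 in FFA2 fl/fl library 1 against 1.75 to 1.83, which shares its Lct value with the first of these. The log2 ratio of Slc2a5 to Slc2a2 was -0.031 in Adipoq-F2-KO library 2 against -1.17 to -1.05.

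Among the marker genes, Fabp6 was at 522.8 in FFA2 fl/fl library 3 against 0.8 to 1.2 in the other controls and at 941.9 in Adipoq-F2-KO library 4 against 1.2 to 140.1. Acta2 was at 3938 in FFA2 fl/fl library 3 against 37.1 to 615.6, and Myh11 was at 9682 against 64.8 to 1535. The enterocyte gene Alpi was at 15583 in Adipoq-F2-KO library 2 against 11572 to 12255, and Apoa4 was at 45435 in FFA2 fl/fl library 4 against 58026 to 59546. The gene 9430015G10Rik was at 35.5 in FFA2 fl/fl library 3 against 58.2 to 61.7. It was named for its likeness to the mean of the sugar genes, itself lowest in that library, so its choice favoured this flag. FFA2 fl/fl library 3 gave 5 of the 11, this gene among them.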

How the results depend on the processing

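None of the 9 sugar genes passed an adjusted p of 0.05 under any of 18 alternatives. The direction held in all 18 for Sis, Treh, Slc5a1, Slc2a2 and Mlxipl, with log2 values of 0.063 to 0.19, -0.33 to -0.11, -0.14 to -0.046, -0.42 to -0.15 and -0.36 to -0.021. It reversed for Mgam in the 5 deep libraries (log2 0.017) and for Khk with a smooth muscle score as covariate (0.044) or, added after seeing the data, an ileal marker score (0.10). The ileal score also moved Mlxipl from -0.17 to -0.023, Slc2a2 from -0.24 to -0.15, Treh from -0.20 to -0.12 and Slc2a5 from 0.13 to 0.41, and the smooth muscle score moved Mlxipl to -0.083 and Lct from -0.039 to -0.011. With 1 library left out at a time, Lct ran from -0.096 (without Adipoq-F2-KO library 3) to 0.10 (without FFA2 fl/fl library 1), Mgam from -0.079 to 0.036 (without FFA2 fl/fl library 4), Slc2a5 from -0.25 (without Adipoq-F2-KO library 2) to 0.49 (without FFA2 fl/fl library 2), Khk from -0.16 to 0.088 (without Adipoq-F2-KO library 4) and the Slc2a5 to Slc5a1 log2 ratio from -0.051 (without FFA2 fl/fl library 3) to 0.63. The number of sugar genes with an unadjusted p under 0.05 was 2 in the 5 deep libraries and 0 to 3 with 1 library left out. It was 3 without FFA2 fl/fl library 3 and 1 (Sis, 0.0349) without Adipoq-F2-KO library 2, beside 8.14% and 3.36% of all tested genes. For the 67 pathway genes it was 3 (3.03% of all tested genes), but 1 with pan-epithelial scaling (2.38%), 6 in the 5 deep libraries (5.4%), 5 with the ileal score (2.75%), 6 with a replicate block (2.71%) and 2 to 11 with 1 library left out, 2 without FFA2 fl/fl library 2 (2.93%) and 11 without FFA2 fl/fl library 3 (8.14%). All tested genes with an adjusted p under 0.05 numbered 6, but 2 with edgeR, 1 with limma-voom, 3 without a count filter, 77 in the 5 deep libraries and 2 to 104 with 1 library left out, 104 being without FFA2 fl/fl library 3 and 21 without FFA2 fl/fl library 2. The cause was not tested. Replicate numbers did not pair the samples throughout (correlations of same-numbered deviations 0.54, 0.29, 0.01 and -0.42). The same number was the closest partner for replicates 1 and 2 and not for 3 and 4. With a replicate block 11 of all tested genes and 0 sugar genes had an adjusted p under 0.05. By coding length, chosen after seeing the data in place of a planned RefSeq protein length that was not run for want of a protein table, 3 of 9 genes held their rank. Depth could not be told apart from the ileal marker Fabp6.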
